A study of Mus musculus with 9 samples.

Results

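The receptors and early signalling genes that carry leptin, insulin and gut hormone signals were examined in the mediobasal hypothalamus (MBH) of male mouse pups. The set was given by gene name and held 10 genes, Lepr, Socs3, Stat3, Ptpn1, Insr, Irs2, Ghsr, Glp1r, Gipr and Calcr, of 35975 genes quantified. All 10 passed the filter on low counts, as did 15340 genes in all, and the 10 genes had 49 annotated transcripts, of which 25 could be tested.

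The MBH holds the arcuate and ventromedial nuclei, where neurons read circulating signals of energy status. The CTRL group was 4 male wild-type C57Bl/6 pups of dams on plain drinking water, and the Emul group was 5 such pups of dams whose water held 1% carboxymethylcellulose (CMC) and 1% polysorbate 80 (P80), which are dietary emulsifiers, before mating and throughout gestation and lactation. All pups were taken at weaning, on postnatal day 21, and the study's methods name as many litters as libraries in each group. The deposited labels also describe emulsifier water given to offspring after weaning; for these libraries they give the age as postnatal day 21 and 1 treatment per group, which was read here as that of the dams. Pups shared a cage with their dam until then, so exposure through the dam and a pup's own contact with the emulsifiers cannot be told apart in this design. RNA was sequenced from bulk tissue, in which fewer cells of a type and less RNA per cell cannot be told apart.

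Leptin, made by fat cells, binds the receptor Lepr, whose long form activates the kinase JAK2 and the transcription factor Stat3. Stat3 in turn induces Socs3, which feeds back on the receptor, and the phosphatase Ptpn1 (PTP1B) removes phosphate from JAK2 and from the insulin receptor. Insulin acts through Insr and its adaptor Irs2. Ghsr is the receptor of the stomach hormone ghrelin, Glp1r and Gipr are the receptors of the intestinal incretins GLP-1 and GIP, and Calcr is the receptor of calcitonin and, together with RAMP proteins, of the pancreatic hormone amylin.

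Libraries held 28245360 to 46067534 estimated counts. Defining genes of the labelled tissue were present in all 9 libraries, with Npy at 177 to 329, Agrp at 33.1 to 57.1 and Pomc at 33.2 to 67.5 TPM (an abundance corrected for transcript length) for the arcuate nucleus and Nr5a1 at 10.4 to 14.5 TPM for the ventromedial nucleus. The choroid plexus gene Ttr was at 0.687 to 2.04 TPM, and the pituitary hormone genes Prl and Gh were at or below 0.142 TPM. Other markers of these tissues were higher. For the choroid plexus, Kl was at 5.06 to 6.43 and Prlr at 9.43 to 13.2 TPM. For the pituitary, Tshb was at 2.64 to 4.11 and Cga at 7.86 to 18.8 TPM. Some marker lists were also examined, on the TPM scale, on which 13.2% of all genes were lower in Emul without overlap. The summed TPM of 10 immediate early genes was 172 to 234 in CTRL and 91.8 to 169 in Emul, with 5 of 9 tested lower at unadjusted p under 0.05 in limma (8.99% of all genes were lower), and that of 6 oligodendrocyte genes was 12282 to 15478 in CTRL and 9200 to 12860 in Emul, with 5 of 6 lower and overlapping sums. The 6 astrocyte genes summed to 1669 to 1743 TPM in CTRL and 1418 to 1622 TPM in Emul, with 1 of 6 lower. Aldoc, at a mean of 819 TPM, was the largest part of that sum. Of the mean log2 CPM of these 3 lists, that of the astrocyte list differed at an exact permutation p of 0.024, against 0.063 for the immediate early and 0.087 for the oligodendrocyte genes. These were the 3 lists of smallest exact permutation p among all marker lists examined (0.14 or above for the others), without adjustment for the number of lists. Their part in the results on Lepr, Insr and the other genes was not tested.

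Lepr-201, Lepr-203 and Lepr-202 share their first 2667 coding bases and then part ways, so the bases after the last shared codon decide which receptor is made. That point lies near the end of the coding sequence in the short forms only. The stretches around that point were taken from the annotated transcripts (mouse build GRCm38), 5′ to 3′, with the last 30 shared bases in lower case and the bases particular to each transcript in capitals. Lepr-201 encodes the long, signalling receptor of 1162 codons (Ob-Rb), of which the first 60 particular bases are shown (chr4:101814448-101814507, plus strand). Lepr-203, with 894 codons (chr4:101811348-101811365), and Lepr-202, with 892 codons (chr4:101792071-101792082), encode short receptors and are shown to their stop codons.
Lepr-201: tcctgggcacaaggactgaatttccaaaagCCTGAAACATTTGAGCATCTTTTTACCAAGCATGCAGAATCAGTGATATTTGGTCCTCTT
Lepr-203: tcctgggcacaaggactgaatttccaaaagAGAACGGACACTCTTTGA
Lepr-202: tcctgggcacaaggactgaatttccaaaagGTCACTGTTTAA

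After the shared 2667 bases, the long form runs on for 273 codons, against 5 in Lepr-203 and 3 in Lepr-202. Stat3 docks at a phosphorylated tyrosine followed, after any pair of residues, by glutamine. Codons of that pattern (tyrosine, any, any, glutamine) occur 3 times in the long form and once in the part that the short forms lack, at codon 1138 (chr4:101815192-101815203), shown here with those 4 codons in capitals.
Lepr-201 tyrosine motif: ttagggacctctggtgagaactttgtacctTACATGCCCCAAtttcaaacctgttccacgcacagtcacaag

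In level, the 10 genes fell in a wide order. TPM was summed over all annotated transcripts of a gene, non-coding ones included. Its mean over the 9 libraries was 46.4 for Stat3, 34.0 for Irs2, 23.3 for Calcr, 21.4 for Ptpn1, 19.7 for Insr, 10.8 for Lepr, 5.03 for Ghsr, 4.97 for Glp1r, 2.14 for Socs3 and 1.55 for Gipr. Neighbours in this order had overlapping ranges for Calcr and Ptpn1, Ptpn1 and Insr, Ghsr and Glp1r, and Socs3 and Gipr, and the other neighbours did not overlap in any library. The feedback gene Socs3 was thus far less abundant than its activator Stat3, and the ghrelin and GLP-1 receptors lay at a common level.

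**Figure D1:**
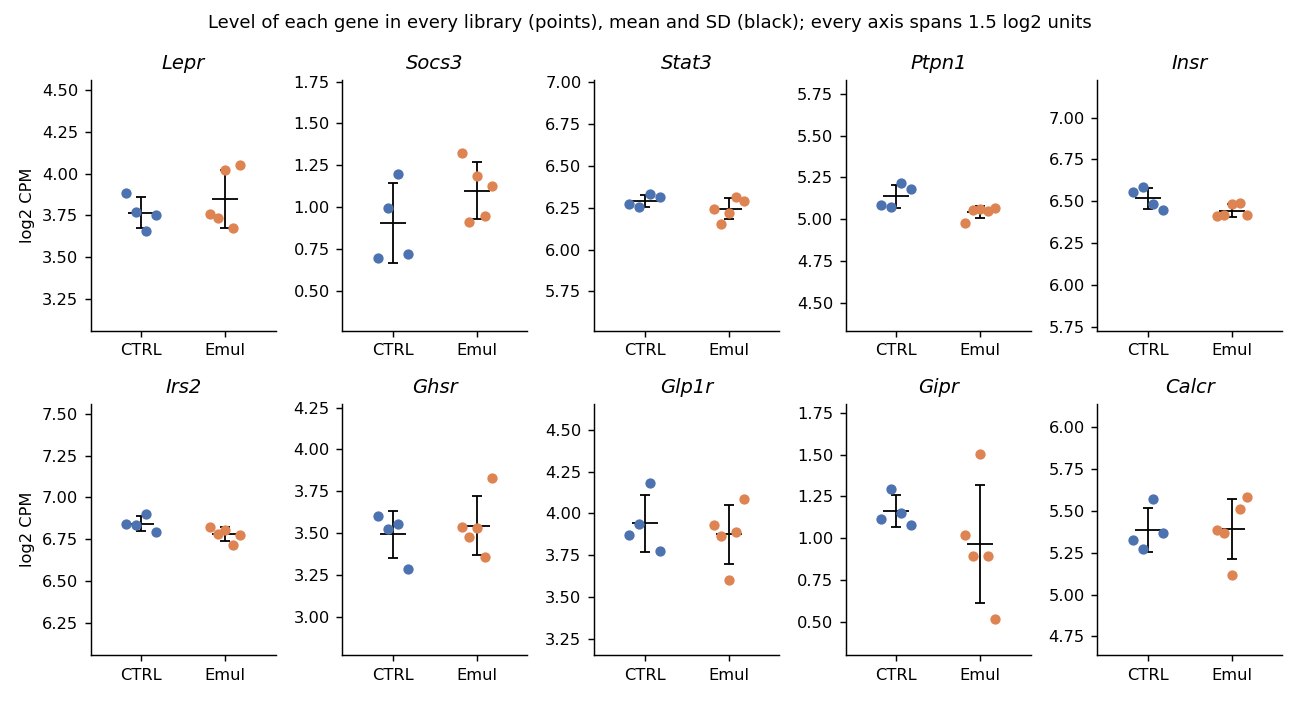
Level of the 10 genes in each library, as log2 CPM (counts scaled to library size) on the vertical axes, with CTRL (n = 4) beside Emul (n = 5) and the mean and SD in black; axes differ in position between genes. Only Ptpn1 showed ranges that did not overlap, and Gipr and Socs3 spread most among libraries.

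Whether maternal emulsifiers changed these genes was asked with limma-voom over all 15340 genes. The study's cutoff was a p under 0.05 with a change above 1.5-fold, a p that its text calls a p-value in one place and a false discovery rate in another. Read as an unadjusted p, it was passed by 0.469% of all genes and by none of the 10. None had an adjusted p under 0.05, which 0.117% of all genes had. At unadjusted p under 0.05 alone, 1 of the 10 was called, Ptpn1, against 15.8% of all genes. The log2 fold changes of Emul over CTRL ran from -0.20 for Gipr to 0.21 for Socs3, with 4 genes higher and 6 lower in Emul, and their median was -0.048 against 0.0015 over all genes.

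The intervals show what these libraries could resolve. For all 10 genes the 95% confidence interval lay within a 1.5-fold change in either direction, and for 8 it lay within 1.25-fold. The exceptions were the least abundant genes, Socs3 (interval -0.10 to 0.53 in log2) and Gipr (-0.57 to 0.17). In the authors' log2 CPM table the intervals reached further for Socs3 (0.088 to 0.96, past 1.5-fold) and for Lepr (-0.0046 to 0.38, past 1.25-fold).

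**Figure D2:**
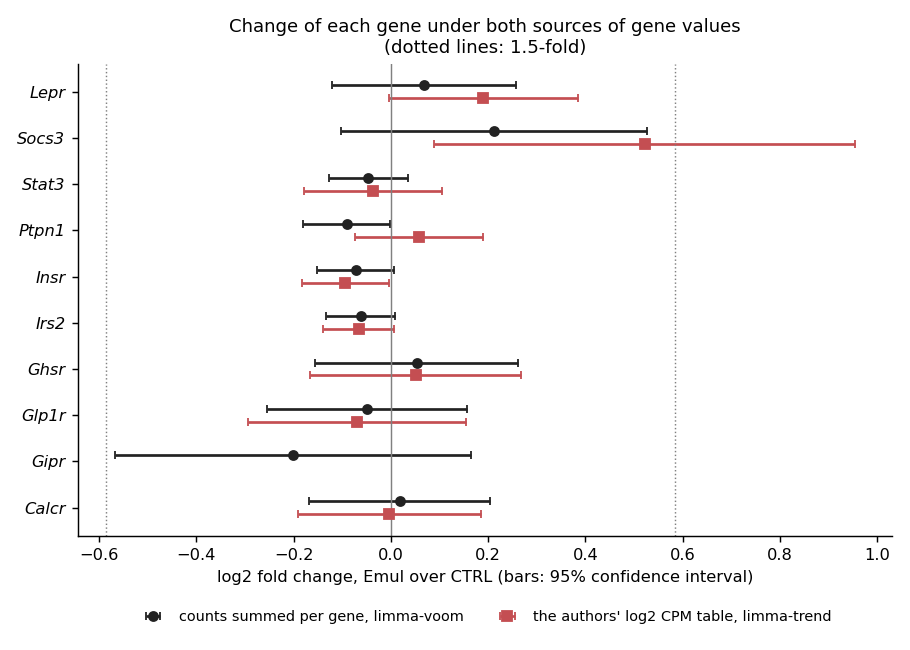
Log2 fold change of Emul over CTRL for the 10 genes, with 95% confidence intervals, from the estimated counts and from the authors' log2 CPM table (Gipr is not in that table). Socs3 lay at 0.21 in the first and 0.52 in the second, and Ptpn1 at -0.091 and 0.057.

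Lepr, the leptin receptor (chr4:101717404-101815352), did not differ between the groups beyond the spread of the libraries. Its log2 CPM was 3.88, 3.77, 3.66 and 3.75 in CTRL and 3.76, 3.74, 4.02, 3.67 and 4.05 in Emul. A pair of Emul libraries, 3 and 5, lay above every CTRL library and the other 3 lay among them. With limma the change was 0.068 ± 0.087 in log2 (SE), at an adjusted p of 0.74. It ran from 0.019 without Emul 5 to 0.12 without Emul 4. In the authors' table it was larger, at 0.19 ± 0.089 (SE; unadjusted p = 0.055, limma-trend), with Emul 1, 3 and 5 above every CTRL library.

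The balance of long and short receptor was also alike within error. The long form took 64.0, 67.4, 63.2 and 60.4% of Lepr estimated counts in CTRL and 61.3, 66.4, 65.3, 63.7 and 71.4% in Emul. Only Emul 5 lay above the CTRL range, and the mean was 63.8% ± 2.85 (SD over 4 libraries) in CTRL and 65.6% ± 3.76 (SD over 5 libraries) in Emul (exact permutation test, two-sided, p = 0.44). Lepr-203, the main short form, took 27.2% ± 3.22 in CTRL (SD over 4 libraries) and 24.6% ± 4.29 in Emul (SD over 5 libraries; exact permutation p = 0.34).

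Per length, the long form was the more abundant receptor in every library. Its TPM was 3.23 ± 0.573 times that of Lepr-203 in CTRL (SD over 4 libraries) and 3.75 ± 0.916 times in Emul (SD over 5 libraries; exact permutation p = 0.37). Lepr-202 was close to absent, with 0 to 20.2 estimated counts per library and 2 libraries at 0. Of the single transcripts, Lepr-201 changed by 0.12 ± 0.13 and Lepr-203 by -0.064 ± 0.15 in log2 (SE), and the non-coding Lepr-204 by 0.24 ± 0.32, with adjusted p of 0.79 to 0.91 (limma over 49604 transcripts). The non-coding Lepr-206 and Lepr-207 and the coding fragment Lepr-205 were too low to test, with Lepr-205 at 0 in all libraries.

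The share of the long form depends on the scale. Taken over TPM, in which the short non-coding transcripts weigh more, the long form made up 40.9% ± 4.17 (SD over 4 libraries) in CTRL and 39.0% ± 3.66 (SD over 5 libraries) in Emul, so the sign of the difference turned (-1.91 points, exact permutation p = 0.42). Over coding transcripts alone it made up 68.9% ± 2.37 and 72.4% ± 4.36 of counts (SD; exact permutation p = 0.21).

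**Figure D3:**
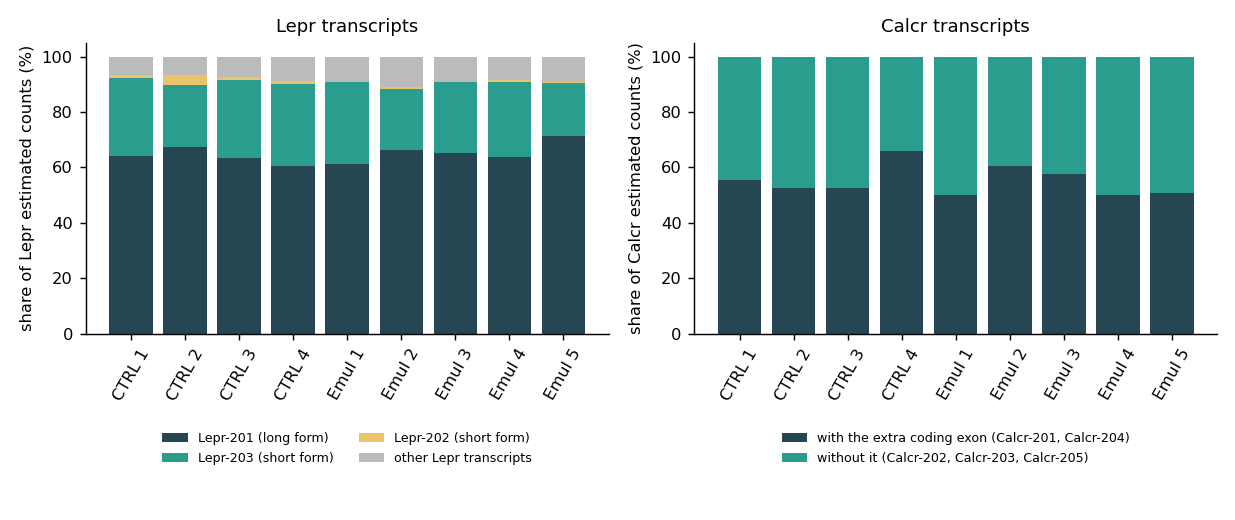
Share of each gene's estimated counts (vertical axes, %) taken by transcripts of Lepr and of Calcr, stacked per library. The long Lepr form took 60.4 to 71.4% in all libraries, and the Calcr forms with the extra exon took 50.0 to 65.9%.

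Stat3 (chr11:100885098-100939540), the transcription factor downstream of Lepr, was at 6.26 to 6.33 log2 CPM in CTRL and 6.16 to 6.31 in Emul, ranges that overlapped. Its log2 fold change was -0.047 ± 0.037 (SE), with 0.57 as the adjusted p from limma. Its main coding transcript moved by -0.055 ± 0.048 (SE).

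Socs3 (chr11:117966079-117970047), the Stat3-induced feedback inhibitor, rested on only 60 to 97 estimated counts per library. Its log2 CPM was 0.69, 1.00, 1.20 and 0.72 in CTRL and 1.32, 0.91, 1.19, 0.95 and 1.12 in Emul. Emul 1 alone lay above the CTRL range, and the log2 fold change of 0.21 ± 0.14 (SE) had an adjusted p of 0.50 (limma).

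In the authors' own log2 CPM table the same gene stood further apart. There Socs3 was 0.56, 1.09, 1.06 and 0.74 in CTRL and 1.60, 1.86, 1.23, 1.09 and 1.15 in Emul, so that 4 of 5 Emul libraries lay above every CTRL library and the fifth just under the highest. The log2 fold change was 0.52 ± 0.20 (SE), with an unadjusted p of 0.023 and an adjusted p of 0.30 (limma-trend). An unadjusted p under 0.05 was found for 13.5% of the 14592 genes there, and of the 9 genes it holds Insr was the other one (-0.094 ± 0.041, unadjusted p = 0.043).

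The sources differed most in Emul 1 (1.32 here against 1.60 in the authors' table) and Emul 2 (0.91 against 1.86). Smaller shifts were seen in CTRL 1 (0.69 against 0.56), CTRL 3 (1.20 against 1.06) and Emul 4 (0.95 against 1.09). In Emul 1 and Emul 2 a very short Socs3 transcript was counted. This non-coding transcript of 246 bases, of which 169 are shared with the coding transcript, had 1.58 estimated counts in Emul 1, 4.00 in Emul 2 and 0 in the other 7 libraries. Because a level per length is divided by that short length, the 4.00 counts stood at 1.80 TPM in Emul 2, above the 1.23 TPM of the coding transcript there, which came from 70.9 counts. Gene sums scaled by transcript length (lengthScaledTPM) gave a log2 fold change of 0.54 (unadjusted p = 0.019, limma). The same sums without transcripts under 500 bases gave 0.19 (unadjusted p = 0.25, limma). That setting was chosen after seeing the data and leaves this short transcript out. How the authors' gene values were summed is not described, and the part of this transcript in their larger difference was not tested. The coding transcript alone gave 0.20 ± 0.16 (SE).

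Ptpn1 (chr2:167932057-167979385), the phosphatase that dampens both leptin and insulin signals, was the gene with the smallest p. Its log2 CPM was 5.08, 5.07, 5.21 and 5.18 in CTRL and 4.98, 5.05, 5.06, 5.05 and 5.07 in Emul. Every Emul library lay below every CTRL library, although the closest pair was nearly equal; of all genes, 6.6% had no overlap and 3.8% were lower in Emul without it. The log2 fold change was -0.091 ± 0.041 (SE; 95% confidence interval -0.18 to -0.0019), with an unadjusted p of 0.046 and an adjusted p of 0.30 (limma). The exact permutation p was 0.0079, the smallest that 4 against 5 libraries allow.

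This call was a fragile one. It was lost when any of 6 of the 9 libraries was left out (CTRL 3, CTRL 4 and Emul 1 to 4; unadjusted p 0.026 to 0.13 over all 9 omissions, limma), and the sign turned to 0.057 in the authors' table and to 0.054 with lengthScaledTPM. With lengthScaledTPM over transcripts of at least 500 bases it was -0.057 (unadjusted p = 0.29, limma). The coding Ptpn1 transcript moved by -0.055 ± 0.050 (SE). Non-coding Ptpn1 transcripts of 4292 and 466 bases ranged from 0 to 135 and from 0 to 30.9 estimated counts among libraries.

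Insr, the insulin receptor (chr8:3122061-3279617), was at 6.55, 6.58, 6.48 and 6.45 log2 CPM in CTRL and 6.41, 6.42, 6.49, 6.49 and 6.42 in Emul. The lowest 3 libraries were Emul, but the ranges overlapped, and the log2 fold change was -0.072 ± 0.036 (SE), with 0.35 as the adjusted p from limma. With 1 library left out, the Insr change ran from -0.097 to -0.049 (unadjusted p 0.026 to 0.22, limma). Insr came to an unadjusted p under 0.05 without CTRL 4 and with library size alone (limma). The same held with older transcripts, with older transcripts and lengthScaledTPM, and in the authors' table (limma). Irs2 (chr8:10984681-11008458), the adaptor that links Insr to PI3 kinase, was at 6.80 to 6.90 in CTRL and 6.71 to 6.82 in Emul, with a log2 fold change of -0.063 ± 0.033 (SE), with 0.38 as the adjusted p from limma. Both differences were small beside those of Socs3 and Gipr but were measured more precisely. On the TPM scale, which lacks the correction for library composition used for CPM here, Irs2 did not overlap between CTRL (34.6 to 38.2) and Emul (30.8 to 33.1), as was so for the 13.2% of all genes given above.

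Of the 25 tested transcripts of these genes, 2 had an unadjusted p under 0.05, a share near the 9.92% of all transcripts, and both were annotated retained introns. Insr-204, a stretch of 4019 bases within the Insr locus (chr8:3177833-3181851) that shares no exon base with the coding Insr-201, was at 0.52, 0.71, 1.18 and 1.10 log2 CPM in CTRL and 1.24, 1.18, 1.37, 1.62 and 1.65 in Emul. No Emul library lay below a CTRL library, although Emul 2 and CTRL 3 were equal to the second decimal, and 1.9% of all transcripts were higher in Emul without overlap. The log2 fold change was 0.56 ± 0.18 (SE; unadjusted p = 0.013, adjusted p = 0.42, limma), on 52.9 to 136 estimated counts per library. The coding Insr-201 went the other way, at -0.082 ± 0.041 (SE; unadjusted p = 0.073).

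The other was Stat3-208 (chr11:100894490-100898528), a retained-intron transcript of 1995 bases of which 367 are shared with the main coding transcript. It was at 0.87, 1.33, 1.57 and 1.28 log2 CPM in CTRL and 0.91, 0.78, 0.93, 0.56 and 0.56 in Emul, so CTRL 1 alone fell among the Emul values. The log2 fold change was -0.52 ± 0.17 (SE; unadjusted p = 0.013, adjusted p = 0.42, limma). Over all 11415 retained-intron transcripts tested, 3.5% were higher and 8.76% lower in Emul at that threshold, and the median log2 fold change was -0.061.

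**Figure D4:**
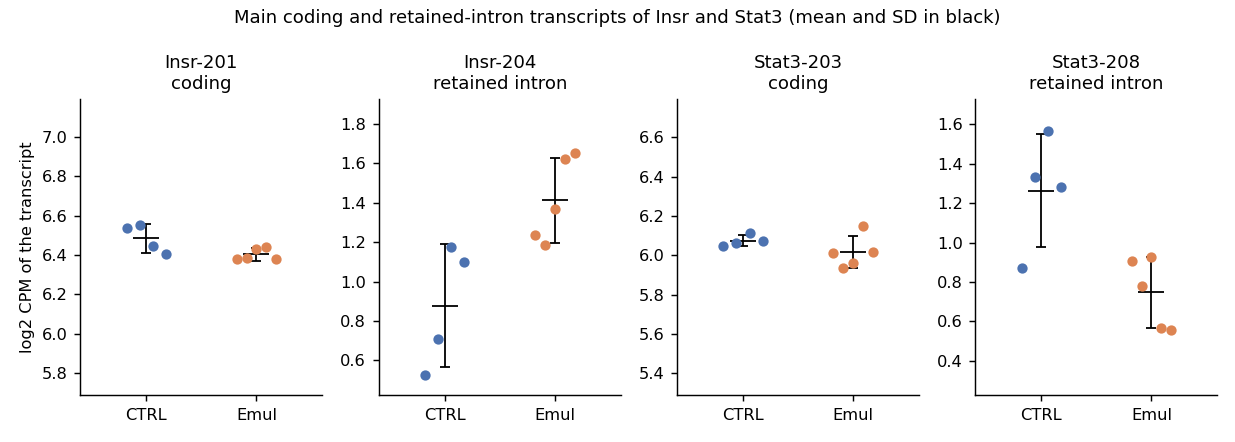
Log2 CPM of the main coding and of a retained-intron transcript of Insr and of Stat3 in each library, with the mean and SD in black. Insr-204 was higher in Emul (0.56 in log2) while Insr-201 lay at -0.082, and Stat3-208 was lower (-0.52) while the coding Stat3 transcript lay at -0.055. Neither retained-intron transcript passed adjustment (adjusted p = 0.42 for both, limma).

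None of the gut and pancreatic hormone receptors differed between the groups beyond the spread of the libraries. Ghsr (chr3:27371351-27378010), the ghrelin receptor, was at 3.29 to 3.60 log2 CPM in CTRL and 3.36 to 3.83 in Emul, and its log2 fold change of 0.053 ± 0.096 (SE) had an adjusted p of 0.83 (limma). Glp1r (chr17:30901817-30940791), the GLP-1 receptor, was at 3.78 to 4.18 in CTRL and 3.60 to 4.08 in Emul, with -0.049 ± 0.095 (SE; adjusted p = 0.84, limma). In both genes the Emul range covered most of the CTRL range.

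Calcr (chr6:3685680-3764714), the calcitonin and amylin receptor, had a higher TPM in every library than the other receptors of gut and pancreatic peptides described here, Ghsr, Glp1r and Gipr. It was at 5.27 to 5.57 log2 CPM in CTRL and 5.11 to 5.58 in Emul, and its log2 fold change was 0.018 ± 0.085 (SE), with 0.94 as the adjusted p from limma. The sign of so small a value was not fixed: it was -0.012 with library size alone and -0.0032 in the authors' table.

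Calcr is made in forms that differ by 1 coding exon of 111 bases, or 37 codons (chr6:3707489-3707599, minus strand), which lengthens the receptor from 496 to 533 codons. The exon is shown in capitals between its flanks, with the same place in a form without it below.
Calcr-201: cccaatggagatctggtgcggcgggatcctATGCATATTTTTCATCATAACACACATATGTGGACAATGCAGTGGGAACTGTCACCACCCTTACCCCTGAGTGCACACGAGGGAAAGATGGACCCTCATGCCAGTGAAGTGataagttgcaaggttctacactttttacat
Calcr-205: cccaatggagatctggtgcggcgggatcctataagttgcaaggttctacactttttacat

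Forms with the exon (Calcr-201 and Calcr-204) took 55.5, 52.6, 52.5 and 65.9% of Calcr counts in CTRL and 50.0, 60.4, 57.6, 50.2 and 50.8% in Emul. CTRL 4 was the highest, and the means of 56.6% ± 6.32 (SD over 4 libraries) and 53.8% ± 4.86 (SD over 5 libraries) did not differ beyond this spread (exact permutation p = 0.48). Both kinds of receptor transcript were therefore present in every library at similar shares.

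Gipr (chr7:19156061-19166127), the GIP receptor, was the lowest of the 10 and rested on 50 to 105 estimated counts. Its log2 CPM was 1.12, 1.30, 1.15 and 1.08 in CTRL and 1.02, 0.89, 1.501, 0.89 and 0.52 in Emul. Emul 3 was the highest of all libraries and the other 4 Emul libraries were lower than any CTRL library. The log2 fold change was -0.20 ± 0.17 (SE), with 0.59 as the adjusted p from limma, and with 1 library left out it ran from -0.33 without Emul 3 (unadjusted p = 0.036) to -0.097 without Emul 5 (unadjusted p = 0.54). A retained-intron transcript, Gipr-203, took on average 61.8% of the gene's counts, and the coding transcript Gipr-201 took 0 to 63.4% depending on the library. These transcripts span nearly the same stretch of the genome, and the part of depth and of the division of counts between them in this spread was not tested.

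Other genes of the same pathways were described from 3 lists. Of 34 tested genes of the leptin and JAK-STAT list, 5 (14.7%) had an unadjusted p under 0.05, near the 15.8% of all genes, with 4 lower and 1 higher in Emul. The median log2 fold change was -0.025. Il6st, the receptor subunit gp130 shared by cytokines of the interleukin-6 family, was at 6.99 to 7.07 log2 CPM in CTRL and 6.80 to 6.94 in Emul without overlap, with a log2 fold change of -0.14 ± 0.034 (SE), with 0.11 as the adjusted p from limma. The call was lost with lengthScaledTPM (-0.086, unadjusted p = 0.15), with older transcripts and lengthScaledTPM (-0.085, unadjusted p = 0.16) and in the authors' table (-0.087, unadjusted p = 0.14; limma). Socs4, of the suppressor of cytokine signalling family, fell by 0.23 ± 0.062 and the docking protein gene Gab1 by 0.18 ± 0.049 in log2 (SE) at unadjusted p, with adjusted p of 0.14 and 0.15 (limma). The only list gene higher at that threshold was Ptpre, a tyrosine phosphatase gene, at 0.080 ± 0.035 (SE), where 6.84% of all genes were; it and Pias3, the remaining lower one at -0.098, are named here after their values were seen.

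In the insulin and PI3K-mTOR list, 6 of 46 tested genes (13.04%) had an unadjusted p under 0.05, below the 15.8% of all genes. All 6 were lower in Emul, and 8.99% of all genes were lower at that threshold. The median over the list was -0.0070. Inppl1, which encodes the lipid phosphatase SHIP2, was at 5.80, 5.75, 5.74 and 5.73 log2 CPM in CTRL and 5.27, 5.55, 5.41, 5.54 and 5.34 in Emul. The groups lay well apart, with a log2 fold change of -0.33 ± 0.056 (SE), with 0.053 as the adjusted p from limma. Irs1, the adaptor related to Irs2, was at 5.01, 5.22, 5.11 and 5.12 in CTRL and 4.71, 4.71, 4.68, 4.93 and 4.92 in Emul, again without overlap, with -0.32 ± 0.065 (SE; adjusted p = 0.086, limma).

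The third named gene of that list, Eif4ebp2, a repressor of translation controlled by mTOR, was at 6.35 to 6.39 log2 CPM in CTRL and 6.16 to 6.26 in Emul, with -0.15 ± 0.029 (SE; adjusted p = 0.081, limma). These 3 genes had an unadjusted p under 0.05 in every setting tried and with any 1 library left out. Their levels moved in the same direction as the oligodendrocyte, astrocyte and immediate early gene sums given above, whose part in these differences was not tested. Lep, Ins1 and Ins2, the genes of leptin and insulin themselves, did not pass the filter on low counts.

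Of 31 tested genes of the gut hormone list, 3 (9.68%) had an unadjusted p under 0.05, below the 15.8% of all genes, and the median log2 fold change was 0.013. Ntsr2, a neurotensin receptor gene, was at 7.56 to 7.73 log2 CPM in CTRL and 7.47 to 7.53 in Emul, with -0.12 ± 0.035 (SE; adjusted p = 0.16, limma). Cck, the cholecystokinin gene, was at 3.92, 4.02, 3.17 and 3.84 in CTRL and 4.35, 4.34, 4.82, 3.71 and 4.36 in Emul, with 0.52 ± 0.21 (SE; adjusted p = 0.26, limma). Emul 3, the highest, was also the library with the highest mean log2 CPM of 6 thalamus markers (5.82, against 4.01 to 4.80 in CTRL and 4.22 to 5.26 in the other Emul libraries). CTRL 2 was the highest CTRL library in both (4.02 for Cck, 4.80 for the markers). Emul 5, next highest for Cck at 4.36, had the lowest thalamus mean of the Emul libraries (4.22). The part of tissue outside the MBH in the Cck difference was not tested. Crcp, which encodes a protein that takes part in CGRP receptor signalling, was higher by 0.12 ± 0.050 (SE; adjusted p = 0.26, limma). The Cck call was lost without CTRL 3 (0.37, unadjusted p = 0.078), without Emul 3 (0.40, unadjusted p = 0.054) and with a replicate block (limma). The Crcp call was lost without CTRL 1, CTRL 3, Emul 1 or Emul 5 and in 4 other settings, with unadjusted p up to 0.089 (limma). The count for this list ran from 1 without CTRL 3 to 8 without Emul 4.

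**Figure D5:**
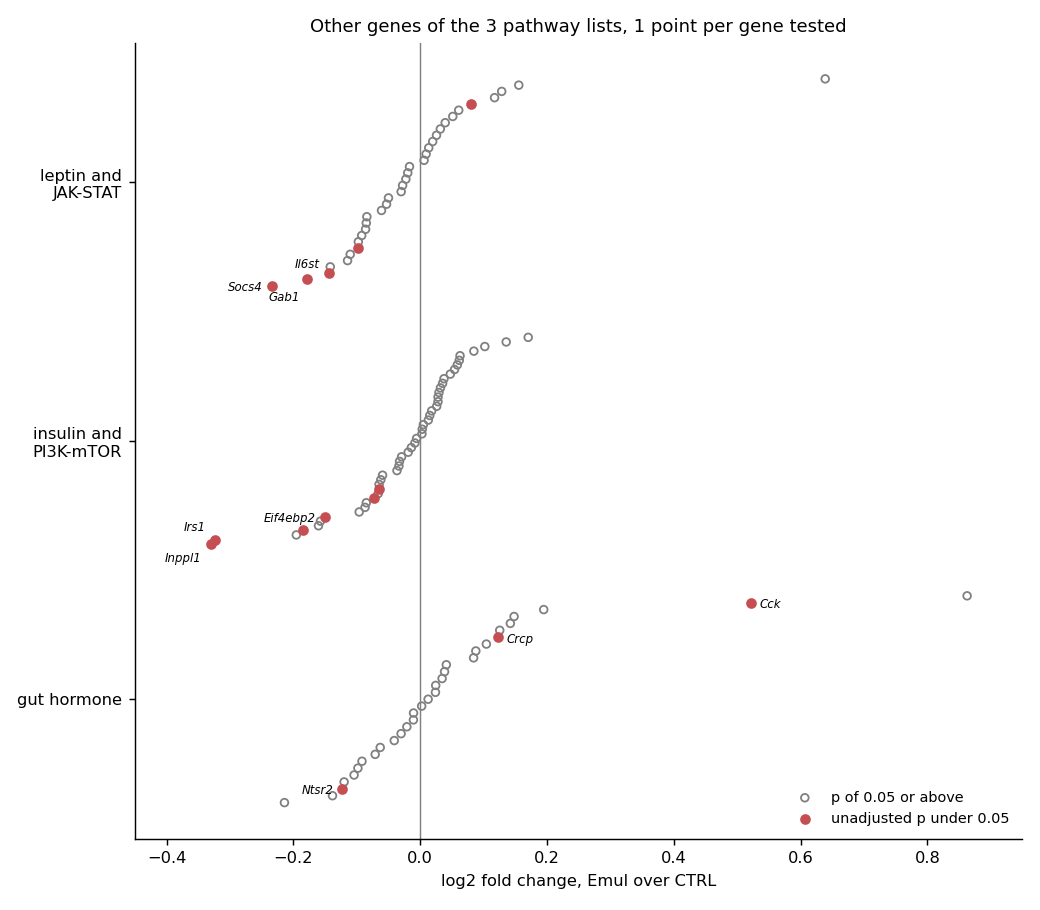
Log2 fold change of Emul over CTRL (horizontal axis) for each tested gene of the 3 pathway lists, 1 point per gene, ordered by value within a list, with filled points at unadjusted p under 0.05 and the named genes labelled. In the insulin and PI3K-mTOR list the 6 filled points all lay below 0, and Inppl1 and Irs1 lay furthest at -0.33 and -0.32.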

How the data were processed

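RNA from the MBH of 4 CTRL and 5 Emul pups was made into stranded mRNA libraries. The authors checked reads with FastQC 0.11.9 and pseudoaligned them with kallisto 0.46.1 to mm10 transcripts (the annotation release is not given in the sources used here), and deposited per library the estimated count and the TPM of 119414 transcripts. They also deposited a gene table of log2 CPM values made with edgeR 3.40.1 (14593 rows, 1 without a gene name, left out), whose gene sums are not described in the sources used here. It was used as an alternative.

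Here estimated counts were summed per gene through the GENCODE M21 annotation (97.8% of transcripts matched, and the rest held 1.20 to 1.27% of counts), filtered to CPM above 1 in at least 4 libraries (transcripts: CPM above 0.5), scaled by TMM in edgeR 4.0.16 and fitted over all genes with limma-voom (limma 3.58.1, R 4.3.3) without covariates. Voom used the unrounded estimated counts, which were rounded for edgeR and DESeq2 tests. Log2 CPM is given with a prior count of 2. Adjusted p-values are Benjamini-Hochberg values over all genes or transcripts tested. Single values were compared by exact, two-sided permutation tests over the 9 libraries. Pathway and marker lists, and the 10 genes, were chosen with earlier results of these data known. Named were the 10 genes, all Lepr transcripts, the 3 genes of smallest p per list, and the 3 genes nearest in pattern to each of the 3 most variable of the 10. Other transcripts of mean TPM of at least 0.5 were to be named too, but only some are given here. Gipr-201, which is named, had a mean TPM of 0.42. No libraries of a group agreed within counting noise (chi-square per gene of at least 7.49 over 16 pairs). Tried as alternatives were DESeq2 1.42.0, the quasi-likelihood test of edgeR, limma-trend, other scalings and filters, lengthScaledTPM, older transcripts only (Ensembl number under 195750), mitochondrial genes left out, a replicate block, the authors' table and each library left out. The scripts were tested on simulated data.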

Additional observations from a re-analysis of the deposited data

Results flagged for a closer look

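Among the Emul libraries, Ptpn1 in Emul 1 lay apart from the rest, at 4.98 log2 CPM against 5.05 to 5.07 in the other 4 libraries. The gap was 0.828 of the group's range, above the critical value of 0.71 for 5 values. Of 56 sets of values examined in this way it was the only one, and about 2.8 would be found by chance. Without Emul 1 the Ptpn1 difference was no longer at unadjusted p under 0.05 (limma), and the cause of the low value was not tested.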

How the results depend on the processing

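No alternative brought any of the 10 genes past the study's cutoff or to an adjusted p under 0.05. The count at unadjusted p under 0.05, 1 as reported, was 0 with DESeq2, without the filter, without mitochondrial genes and with lengthScaledTPM over transcripts of at least 500 bases (chosen after seeing the data), 2 with older transcripts, with older transcripts and lengthScaledTPM, and in the authors' table, 3 with library size alone, and 0 to 1 with 1 library left out, and the share of all genes so called ran from 10.8 to 18% over the settings. The count without overlap, 1 as reported, was 0 with lengthScaledTPM, with older transcripts and lengthScaledTPM, with transcripts of at least 500 bases and in the authors' table, and 1 to 2 with 1 library left out. The leptin and JAK-STAT count of 5 was 3 with lengthScaledTPM, with older transcripts and lengthScaledTPM and in the authors' table, and 3 to 7 with 1 library left out. The insulin count of 6 was 10 with lengthScaledTPM, and 5 to 8 with 1 library left out. The gut hormone count of 3 ran from 1 to 8 and the transcript count of 2 from 2 to 3 with 1 library left out, and the transcript count was 4 with library size alone and 4 without the filter. The long-form share of Lepr differed by 1.87 points, by -1.91 over TPM, and by 0.42 to 3.08 with 1 library left out. Signs turned for Ptpn1 (0.054 with lengthScaledTPM, 0.055 with older transcripts too, 0.057 in the authors' table) and for Calcr (-0.012 with library size alone, -0.0032 in the authors' table), and with 1 library left out Calcr ran from -0.025 to 0.086, Ghsr from -0.025 to 0.11, Glp1r from -0.11 to 0.015 and Lepr-203 from -0.16 to 0.0041 in log2. The cause of these shifts was not tested. Socs3 and Gipr rested on the fewest counts of the 10 genes.

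No pairing of libraries by replicate number was seen. The deviations of libraries with the same number correlated at -0.16 to 0.021, and 0 of 4 CTRL libraries correlated best with their own number. With 1 library per group and number, so few values cannot exclude a pairing. With the replicate number as a block, 1 of the 10 genes had an unadjusted p under 0.05 (Ptpn1, at -0.099), Ghsr stood at -0.018 and Calcr at -0.023, the lists held 4, 5 and 3 such genes, and the long-form share differed by 0.42 points.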

Other observations

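The genes whose pattern over the 9 libraries was nearest to that of the 3 most variable receptors and regulators were found by the root-mean-square (RMS) difference of centred log2 CPM. For Gipr these were Gm19236 (0.089), D130007C19Rik (0.11) and Slc25a35 (0.12), against a median of 0.28 over all genes. For Socs3 they were Vmn1r227 (0.079), 2010109I03Rik (0.080) and Pkp2 (0.089), against a median of 0.22. For Glp1r they were Ecel1 (0.075), Cybrd1 (0.076) and Rps6ka6 (0.079), against a median of 0.18. The nearest genes were picked as the smallest differences over all genes, so they lie below the median by selection and do not by themselves show a shared pattern. Gipr and Socs3 rest on few counts, unlike Glp1r (457 to 669 estimated counts per library), and the part of low counts in these values was not tested.

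Other marker lists stood beside these genes as follows. The summed TPM of 10 arcuate markers was 523 to 562 in CTRL and 468 to 690 in Emul, and that of 5 ventromedial markers 55.5 to 59.8 and 47.3 to 59.1. Tanycyte markers summed to 69.7 to 79.3 and 63.3 to 81.2 TPM, choroid plexus markers to 32.4 to 33.5 and 30.5 to 36.1, and suprachiasmatic markers to 64.4 to 98.0 and 41.2 to 77.0. Endothelial markers summed to 297 to 338 and 283 to 316 TPM, mural and fibroblast markers to 195 to 220 and 167 to 203.1, microglial markers to 220 to 242 and 213 to 235, pituitary markers to 16.4 to 23.3 and 11.4 to 23.0, and thalamus markers to 314 to 397 and 332 to 472. All of these ranges overlapped between the groups. At unadjusted p under 0.05 (limma), 2 of 6 thalamus markers were higher in Emul and 2 of 6 suprachiasmatic markers lower. Among 10 endothelial markers 1 was higher and 1 lower, and 1 of 5 ventromedial markers was lower. Of all genes, 6.84% were higher and 8.99% lower at that threshold. Mean log2 CPM was 4.36 in CTRL and 4.97 in Emul for the thalamus list (exact permutation p = 0.14). It was 3.62 and 3.19 for the suprachiasmatic list (exact permutation p = 0.14). Calb2, at a mean of 296 TPM, made up most of the thalamus sum.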
